A study of Mus musculus with 35 samples.

Results

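The tissue kallikreins of mouse epidermis and their inhibitor were followed through 4 weeks of radiation injury of the skin. The 10 genes were taken by name: the serine proteases Klk5, Klk6, Klk7, Klk8, Klk9, Klk10, Klk11, Klk13 and Klk14, and Spink5, which encodes the inhibitor LEKTI. All 10 were found among the 36106 genes of the count table, and all 10 passed the filter on low counts in every comparison.

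Bulk RNA sequencing covered 35 samples of skin. They came from 19 C57BL/6J females, an inbred strain, aged 10 weeks at the start. The left flank received 25 Gy at 3.6 Gy/min over 420 s and was then shaved with an electric razor. At weeks 1, 2, 3 and 4 there were 4 samples of radiated and 4 of control skin, and 3 mice that were not radiated gave the sham samples. No group carried an engineered allele. Equal numbers within a week are taken to mark 1 mouse, since 3 sham mice and 16 mice with a radiated and a control sample make up the 19. The body site of the control skin is not stated. Comparisons between weeks are comparisons between different mice.

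Kallikreins are secreted as inactive precursors, mostly by granular keratinocytes, and are switched on by other proteases or by each other in the outermost layers. There they cut the proteins of corneodesmosomes, the junctions that hold dead cells together, so that the surface can be shed. LEKTI binds several of them, among them the products of Klk5, Klk7 and Klk14, and loss of it in people causes Netherton syndrome, in which the barrier fails and the skin is inflamed. Some kallikreins also act on the receptor PAR2, on cathelicidin and on profilaggrin, which ties the family to inflammation and to the making of the barrier.

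The 9 kallikreins lie in 1 row on chromosome 7 of the GRCm38 build, all on the plus strand, in the order Klk14, Klk13, Klk12, Klk11, Klk10, Klk9, Klk8, Klk7, Klk6 and Klk5. That stretch, with Klk12 counted in, spans 160.764 kb, from chr7:43690418 to 43851181 (GENCODE M21). Klk6 occupies chr7:43824499-43832030 and Klk13 occupies chr7:43712567-43727534. Spink5 lies on another chromosome, 18, at 43963235-44022501. The antisense gene 2310002F09Rik overlaps 6 of the kallikreins on the minus strand, from Klk14 to Klk8. It shares 22.9% of the 31-base words of Klk8 and, with other transcripts, 22.8% of those of Klk14. The strand setting of the counting is not given in the sources used here and 2310002F09Rik was not analysed here, so the values of Klk8 and Klk14 are less certain than those of the other members.

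Promoter stretches of 4 genes are shown, because these neighbours in the row behaved unlike each other: Klk6 and Klk13 had the largest differences of the family, Klk8 a small one and Klk7 none that passed the test. They are from RefSeq on GRCm38.p6, plus strand, 5′ to 3′, up to 250 bases before an annotated start and shortened where an annotated exon begins. Capitals mark TTAAAA, a TA-rich run that was chosen for display after the sequences had been read. The Klk6 stretch is that of its second annotated start, chr7:43825200-43825394. The others are Klk13 at chr7:43712317-43712566, Klk8 at chr7:43797327-43797576 and Klk7 at chr7:43811044-43811293.
Klk6: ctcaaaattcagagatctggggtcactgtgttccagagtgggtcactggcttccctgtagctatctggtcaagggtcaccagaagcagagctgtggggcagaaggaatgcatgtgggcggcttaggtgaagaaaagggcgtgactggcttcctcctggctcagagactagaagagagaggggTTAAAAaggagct
Klk13: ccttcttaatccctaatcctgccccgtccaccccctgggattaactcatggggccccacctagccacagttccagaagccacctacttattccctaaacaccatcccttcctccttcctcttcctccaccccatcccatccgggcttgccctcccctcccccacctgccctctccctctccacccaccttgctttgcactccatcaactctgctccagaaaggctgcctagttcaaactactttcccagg
Klk8: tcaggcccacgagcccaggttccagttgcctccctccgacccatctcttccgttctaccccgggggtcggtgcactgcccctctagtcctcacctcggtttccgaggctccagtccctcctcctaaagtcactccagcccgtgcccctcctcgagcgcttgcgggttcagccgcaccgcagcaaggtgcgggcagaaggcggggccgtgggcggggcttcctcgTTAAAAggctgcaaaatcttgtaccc
Klk7: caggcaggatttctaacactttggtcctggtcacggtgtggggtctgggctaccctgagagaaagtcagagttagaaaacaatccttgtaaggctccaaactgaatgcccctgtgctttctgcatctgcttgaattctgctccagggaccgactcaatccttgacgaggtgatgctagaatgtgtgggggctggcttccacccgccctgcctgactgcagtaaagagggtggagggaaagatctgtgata

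TTAAAA was found 68 bases before the second start of Klk6, 26 bases before the start of Klk8, 17 bases before that of Klk10 and 233 bases before the first start of Klk11. Searched on both strands, it is present in 17.7% of 32817 mouse promoter windows of 250 bases. None of the kallikreins' windows held TATAAA (12.4% of all windows), the AP-1 motif TGANTCA (6.75%) or the grainyhead motif AACNGGTT (1.78%). Neither Klk13 nor Klk7 held any of the 4 motifs. A match is a run of letters, not a measured site.

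Levels are in CPM, a gene's counts scaled to the size of its library with TMM normalization, and are compared between genes per kb of the longest coding transcript. Spink5 was the most abundant member on that scale, at 310.3 CPM per kb on average in control skin. Klk7, which encodes a chymotrypsin-like protease that cuts corneodesmosin, came next at 135 CPM per kb. Klk5 (34.7), Klk11 (27.8) and Klk9 (21.6) followed, and Klk8 (7.54), Klk10 (6.80), Klk6 (2.13), Klk13 (0.847) and Klk14 (0.598) were low there. In radiated skin over all weeks, Klk6 averaged 68.7 CPM per kb and Klk13 31.6 CPM per kb. Library totals ran from 17362853 to 28487885 counts, and the lowest count of any member in a library was 5, for Klk14.

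**Figure D1:**
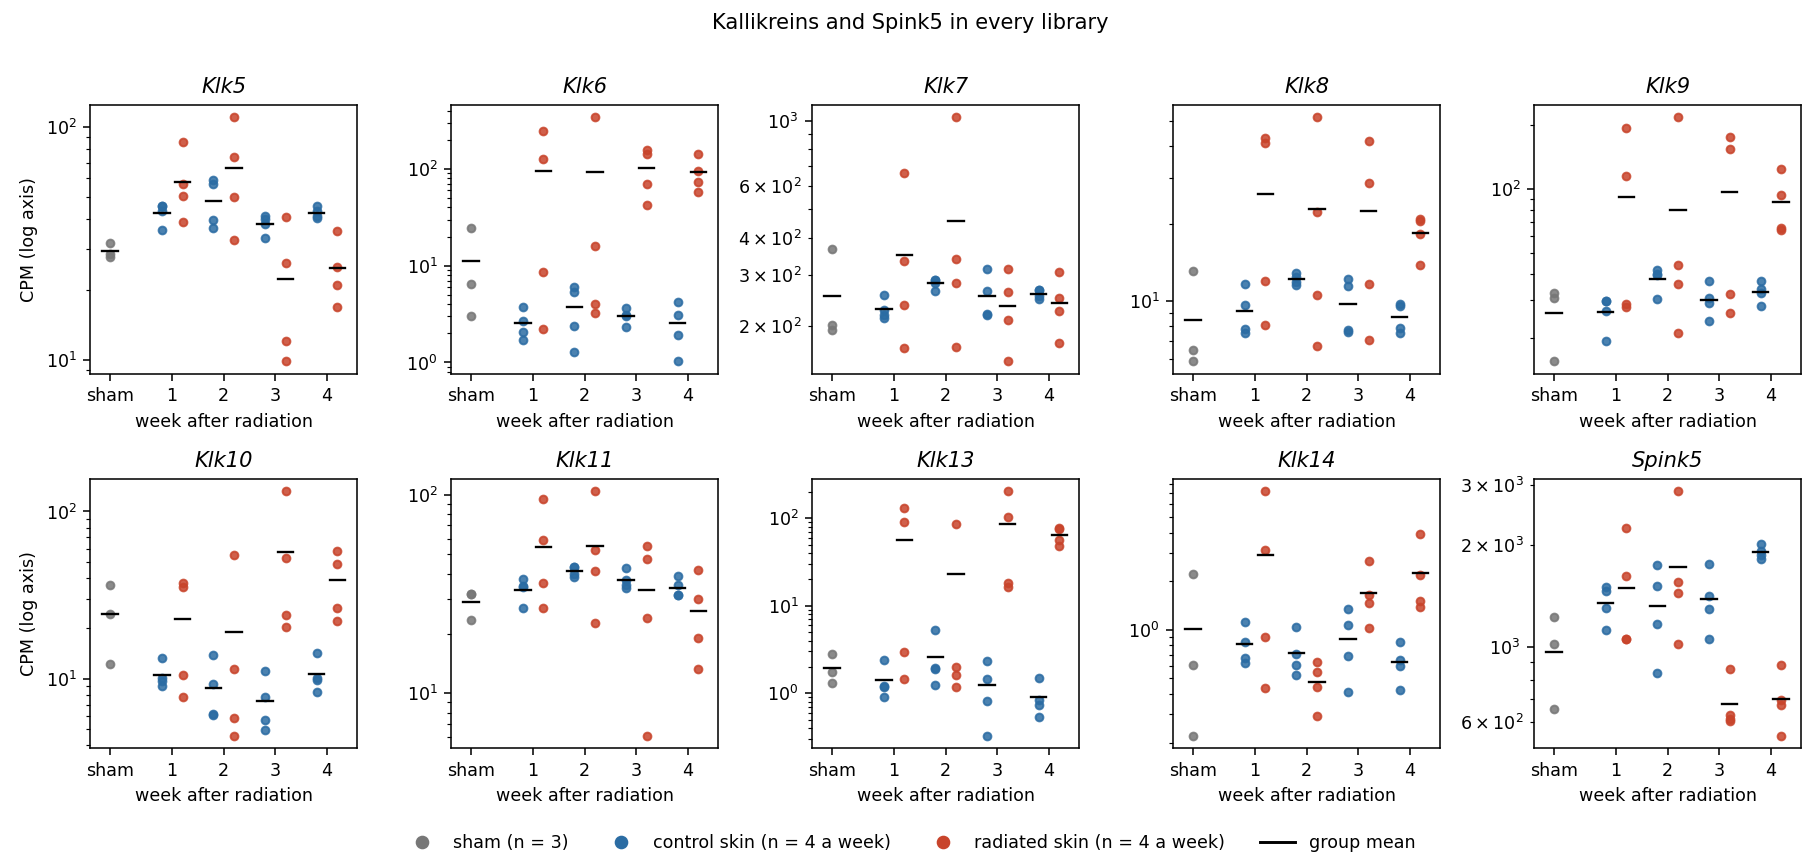
CPM of the 10 genes in each of the 35 libraries (log axis), for sham skin and for control and radiated skin at weeks 1 to 4; points are libraries and black lines are group means. Klk6 and Klk13 show radiated libraries of weeks 3 and 4 entirely above the control libraries of the same week, and Spink5 shows them entirely below those of the same week.

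Klk6 and Klk13 had the largest differences of the family. Klk6 encodes a trypsin-like protease, also made in the nervous system, and Klk13 another trypsin-like protease. In week 3 the 4 radiated libraries held 142, 42.0, 158 and 70.1 CPM of Klk6, and the 4 control libraries held 3.65, 3.07, 2.32 and 3.03 CPM. In week 4 they held 57.2, 73.7, 143 and 94.3 CPM against 4.23, 3.10, 1.02 and 1.92 CPM. Every radiated library of those weeks lay above every control library, and the week 4 difference came to 36.5-fold. The log2 fold change of Klk6, radiated minus control, was 5.12 ± 0.45 (SE, n = 4 and 4, edgeR quasi-likelihood test, adjusted p = 0.000641) in week 3 and 5.19 ± 0.44 (adjusted p = 1.44e-05) in week 4.

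Klk13 was close to silent in control skin. Its control libraries held 0.810, 0.328, 1.44 and 2.34 CPM in week 3 and 1.48, 0.531, 0.726 and 0.846 CPM in week 4. Its radiated libraries held 16.2, 18.4, 204 and 104 CPM in week 3 and 74.3, 77.2, 48.7 and 56.7 CPM in week 4. The groups did not overlap in either week, and the radiated libraries of week 4 lay closer together than those of week 3, where replicates 3 and 4 stood high. The log2 fold change of Klk13 was 6.18 ± 1.00 in week 3 (edgeR, adjusted p = 0.00303), and 5.28 without radiated replicate 3 (adjusted p = 0.00483). It came to 6.19 ± 0.29 in week 4 (adjusted p = 1.36e-06). Both genes were higher in the radiated sample of 4 of 4 mice in each of these weeks.

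In weeks 1 and 2 the same 2 genes were high in some mice and not in others. Radiated week 1 libraries held 2.22, 248, 125 and 8.56 CPM of Klk6 and 1.45, 131, 89.8 and 2.93 CPM of Klk13. Radiated week 2 libraries held 3.23, 3.97, 15.9 and 345 CPM of Klk6 and 1.19, 1.64, 1.99 and 86.8 CPM of Klk13. Replicates 2 and 3 of week 1 and replicate 4 of week 2 thus reached or passed the levels of week 4, while replicate 1 of each week lay within the control range of Klk6 (1.29 to 5.98 CPM over both weeks). Neither gene passed the test in week 1 (Klk6 log2 fold change 5.25 ± 1.2, Klk13 5.31 ± 1.26, edgeR adjusted p = 0.190 for both) or in week 2 (4.64 ± 1.47, adjusted p = 0.210, and 3.16 ± 1.34, adjusted p = 0.338). Without radiated replicate 4 the week 2 values became 1.03 for Klk6 and -0.705 for Klk13. Without radiated replicate 1 both passed in week 1, with log2 fold changes of 5.64 (edgeR adjusted p = 0.0167) and 5.70 (adjusted p = 0.0221). DESeq2 called both in week 1, with adjusted p = 0.00278 and 0.00355.

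The same libraries stood high for most of the family. Radiated week 1 replicate 2 lay above all 4 control libraries of its week for 10 of 10 members and replicate 3 for 9 of 10, the exception being Spink5. Radiated week 2 replicate 4 did so for 9 of 10, the exception being Klk14, whereas radiated week 2 replicate 1 lay below all 4 controls for 8 of 10. Radiated week 2 replicate 3 lay above all 4 controls for 6 of 10 members and week 1 replicate 4 for 5 of 10. Within a library the high values thus covered several members. The share of all genes lying outside the control range in these libraries was not counted, so these counts have no background. Radiated week 1 replicates 2 and 3 and week 2 replicate 4 are called the high libraries here. In them the summed level of 5 basal keratinocyte markers ranged from 11763 to 16410 CPM. The other radiated libraries held 9286 and 15314 CPM in week 1 and 9527 to 15025 CPM in week 2. Krt14, 1 of these 5 markers, held 7716 and 3480 CPM in the high libraries of week 1 against 1584 and 2745 CPM in the others. In week 2 it held 7363 CPM in the high library against 1885, 2382 and 3283 CPM in the others. Suprabasal and granular markers summed to 26905 and 29300 CPM in the high libraries of week 1 against 20064 and 26703 CPM in the others, and in week 2 to 25651 CPM against 16083 to 32515 CPM. Skeletal muscle markers were lowest in them, at 8999 and 9723 CPM against 21288 and 13961 CPM in the other radiated libraries of week 1, and at 12006 CPM against 13197 to 24068 CPM in week 2. Neutrophil markers summed to 35.5 and 27.5 CPM in the high libraries of week 1 against 15.9 and 12.7 CPM in the others, and in week 2 to 35.1 CPM against 11.5 to 37.3 CPM. The part of cell composition in these differences was not tested.

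Klk10, Klk9, Klk8 and Klk14 made up a second tier. Klk8 encodes neuropsin, a trypsin-like protease that also acts in the brain, Klk9 a chymotrypsin-like protease and Klk14 a trypsin-like protease of shedding skin. Klk10 was already higher in week 3, with 52.4, 20.2, 132 and 24.0 CPM in radiated libraries against 11.2, 4.96, 5.62 and 7.82 CPM in control libraries (log2 fold change 2.99 ± 0.60, edgeR adjusted p = 0.00695). Without radiated replicate 3 the week 3 value became 2.16 (edgeR adjusted p = 0.00742). In week 4 Klk10 held 22.2, 26.5, 58.1 and 48.7 CPM against 14.2, 8.27, 9.86 and 10.0 CPM. The groups stayed apart in both weeks, and the week 4 log2 fold change was 1.88 ± 0.31 (edgeR adjusted p = 0.000859). Against sham skin Klk10 did not pass in week 3 (1.28 ± 0.68, edgeR adjusted p = 0.223) or week 4 (0.722 ± 0.435, adjusted p = 0.258).

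Klk9 and Klk8 passed in week 4. Radiated libraries of that week held 93.5, 124, 63.9 and 65.8 CPM of Klk9 against 36.8, 28.3, 34.0 and 32.4 CPM in control libraries, a log2 fold change of 1.41 ± 0.21 (edgeR adjusted p = 0.000388). For Klk8 the values were 20.5, 18.2, 20.9 and 13.8 CPM against 9.79, 7.92, 9.57 and 7.57 CPM, a log2 fold change of 1.09 ± 0.16 (adjusted p = 0.000406). All radiated libraries exceeded all control libraries for both genes. In week 3 only replicates 3 and 4 were high, with 176 and 155 CPM of Klk9 beside 26.1 and 32.0 CPM in replicates 1 and 2, and the log2 fold changes of 1.71 ± 0.58 (edgeR adjusted p = 0.0523) and 1.22 ± 0.49 (adjusted p = 0.0930, Klk8) did not pass. Both calls of week 4 were lost in 1 fit of all 35 samples, where the groups share 1 estimate of the spread (adjusted p = 0.0683 for Klk9 and 0.0998 for Klk8). Both passed in week 3 under total-count scaling and DESeq2.

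Klk14 was the scarcest member. Radiated week 4 libraries held 3.93, 1.51, 1.38 and 2.19 CPM and control libraries 0.423, 0.840, 0.598 and 0.653 CPM, which did not overlap. The log2 fold change was 1.83 ± 0.40 (edgeR adjusted p = 0.00406). In week 1 the radiated libraries held 0.896, 7.23, 3.13 and 0.437 CPM of Klk14, with replicates 2 and 3 high as for Klk6. Control libraries of that week held 1.12, 0.665, 0.620 and 0.841 CPM. The log2 fold change of 1.84 ± 0.73 did not pass (edgeR adjusted p = 0.305). In week 2, where Klk6 averaged 92.0 ± 169 CPM (SD, n = 4) in radiated skin, Klk14 averaged 0.478 ± 0.146 CPM. Control skin held 0.720 ± 0.228 CPM of Klk14, and the difference did not pass (edgeR adjusted p = 0.571).

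Between radiated and control skin, edgeR called none of Klk5, Klk7 and Klk11 higher in any week, nor did DESeq2. Klk5 encodes the trypsin-like protease that activates Klk7 and Klk14. Its radiated week 4 libraries held 21.0, 35.8, 25.1 and 16.9 CPM, all below the control libraries at 45.8, 41.5, 43.4 and 40.5 CPM. Klk5 fell by 0.785 ± 0.197 on the log2 scale (edgeR adjusted p = 0.00858), a call lost in 1 fit of all 35 samples (adjusted p = 0.0617). In week 3 its radiated libraries held 9.83, 12.0, 26.1 and 40.8 CPM, of which the highest overlapped the control range of 33.5 to 41.3 CPM, and the log2 fold change of -0.765 ± 0.394 did not pass (adjusted p = 0.174), although it did without radiated replicate 4 (-1.23, adjusted p = 0.0211).

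Klk7 did not pass the test in any week. Its week 4 libraries held 176, 249.7, 306 and 225 CPM in radiated skin and 266, 265, 254 and 248 CPM in control skin, which overlapped. The log2 fold change was -0.102 ± 0.144 (edgeR adjusted p = 0.586), and in week 3 it was -0.0877 ± 0.223 (adjusted p = 0.798). The sign of both changed when 1 library was left out, and that of week 3 also under total-count scaling (0.156). The highest Klk7 values of the study, 662 CPM in radiated week 1 replicate 2 and 1031 CPM in radiated week 2 replicate 4, came from libraries already named for Klk6. Klk11, which encodes a trypsin-like protease also called hippostasin, averaged 33.1 ± 22.4 CPM in radiated and 37.3 ± 4.01 CPM in control skin of week 3, and 26.0 ± 12.6 against 34.1 ± 3.61 CPM in week 4 (SD, n = 4 each). Its spread in radiated skin was wide, from 6.13 to 55.1 CPM in week 3, and neither week passed (edgeR adjusted p = 0.854 and 0.313), while week 4 passed without radiated replicate 2 (-0.709, adjusted p = 0.0415).

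Spink5 moved the opposite way to Klk6 and Klk13. Radiated libraries held 606, 612, 630.1 and 861 CPM in week 3 and 548, 883, 696 and 675 CPM in week 4. Control libraries held 1751, 1058, 1293 and 1415 CPM in week 3 and 2007, 1857, 1918 and 1818 CPM in week 4. The groups did not overlap, the radiated sample was lower in 4 of 4 mice of each week, and control skin of week 4 was uniform, with an SD of 82.5 CPM. Spink5 fell by 0.998 ± 0.194 on the log2 scale in week 3 (edgeR adjusted p = 0.00611). The week 4 log2 fold change was -1.43 ± 0.13 (adjusted p = 2.66e-05).

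In the first weeks Spink5 did not differ beyond its spread. Radiated libraries held 1052, 2237, 1052 and 1615 CPM in week 1 and 1022, 1442, 1549 and 2874 CPM in week 2, against 1124 to 1496 CPM and 837 to 1746 CPM in control skin. Replicate 2 of week 1 and replicate 4 of week 2 were again the high ones. The log2 fold changes of 0.155 ± 0.247 and 0.388 ± 0.336 did not pass (edgeR adjusted p = 0.789 and 0.647). In bulk skin, fewer cells that make a transcript and less of it per cell cannot be told apart.

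**Figure D2:**
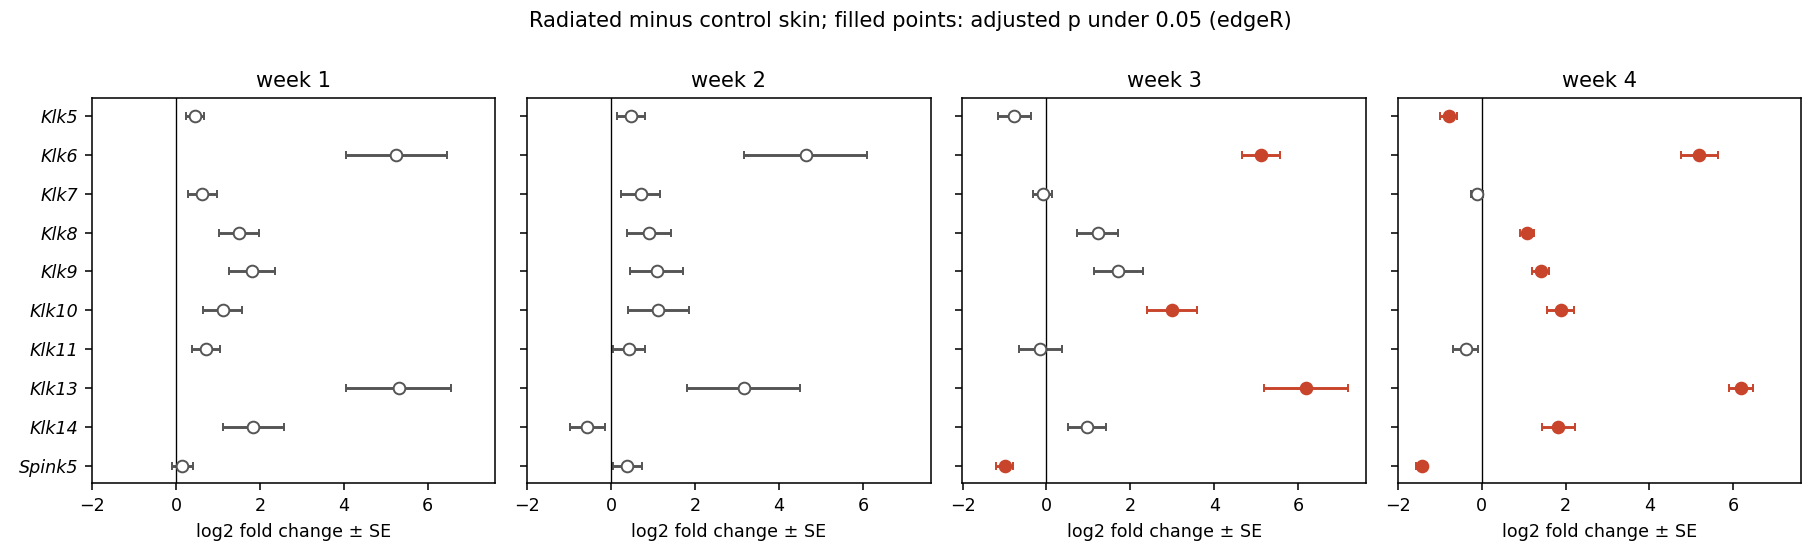
Log2 fold change of each gene, radiated minus control skin, with its SE, in weeks 1 to 4 (edgeR, n = 4 and 4); filled points passed an adjusted p of 0.05. Open points with wide bars in weeks 1 and 2 give way to 4 calls in week 3 and 8 in week 4.

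By count, edgeR called 0 of 10 members in week 1 (6 had an unadjusted p under 0.05, and DESeq2 called 3) and 0 in week 2 (2 unadjusted, DESeq2 0). Over all genes tested, DESeq2 called 419 of 25203 in week 1 and 711 of 25273 in week 2. By edgeR, 0% were called in week 1 and 0.00577% in week 2, which is 1 of 17345 genes. With the replicate number as a block, 641 of those genes were called in week 2, and 0 members, and 1 fit of all 35 samples called 544 of 19813 genes, Klk6 among them. In week 3 the edgeR fit of the 2 groups called 3 members higher (Klk6, Klk10, Klk13), where 13.6% of all genes tested were called higher. It called 1 lower (Spink5), where 13.6% were called lower. In week 4 the edgeR fit of the 2 groups called 6 higher (Klk6, Klk8, Klk9, Klk10, Klk13, Klk14), where 24.2% of all genes were called higher. It called 2 lower (Klk5, Spink5), where 24.2% were called lower. The 10 members had a median log2 fold change of 1.10 (week 3) and 1.25 (week 4), beside 0.0804 and 0.0175 over all genes tested.

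**Figure D3:**
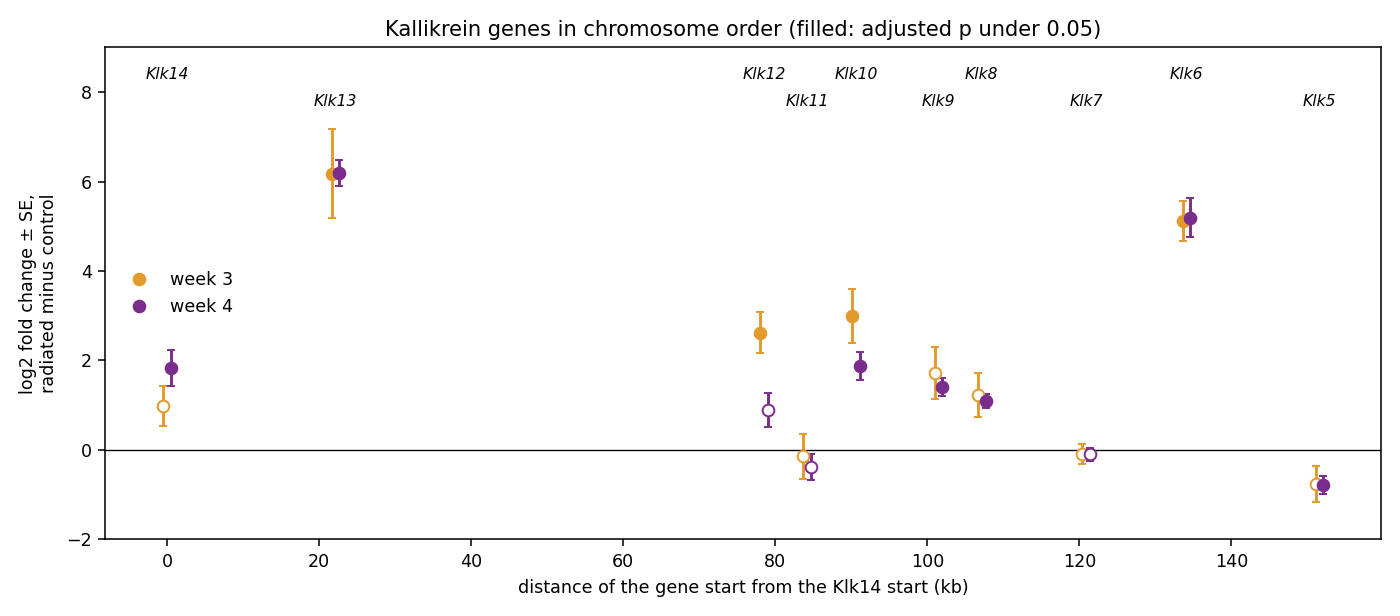
Log2 fold change, radiated minus control skin, with its SE, for the 9 kallikreins and Klk12 against the distance of each gene's start from the start of Klk14 in kb, in weeks 3 and 4; filled points passed an adjusted p of 0.05. Klk6 rises above its neighbours Klk5 and Klk7, which lie at or below 0.

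Along the chromosome, neighbours were alike in some places and not in others, described here with no test. The adjacent genes Klk8, Klk9 and Klk10 had week 4 log2 fold changes of 1.09, 1.41 and 1.88. Klk6 lies 8139 bases from Klk7 and 9940 bases from Klk5, and in week 4 its log2 fold change was 5.19 beside -0.102 and -0.785. Klk12, the gene between Klk13 and Klk11 and a family member outside the list above, was higher in week 3 (3.94 ± 1.01 CPM against 0.640 ± 0.356 CPM, log2 fold change 2.62, edgeR adjusted p = 0.00379) and did not pass in week 4 (0.89, adjusted p = 0.0771). Of the 18 other kallikrein family genes looked up, Klk12 and Klkb1, the plasma kallikrein of the liver, passed the filter on low counts.

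Whether the radiated-minus-control difference itself changed with time was tested in 1 fit of the 32 radiated and control libraries. Of the 10 members, edgeR called Spink5 in the test over the 4 weeks (adjusted p = 0.00173), where 15.6% of all genes tested were called. In that test DESeq2 also called Klk5 (adjusted p = 0.0276), and without replicate 4 of every group edgeR also called Klk10 (0.0353) and Klk13 (0.0122). From week 2 to week 3 the Spink5 difference fell by 1.39 ± 0.37 log2 units (adjusted p = 0.0226, 6.9% of all genes called). No member was called from week 1 to week 2 (1 unadjusted, DESeq2 0, 0% of all genes) or from week 3 to week 4 (0 unadjusted, DESeq2 0, 0.419% of all genes). For Klk6 the test over the weeks gave adjusted p = 0.986, with an SE of 1.5 log2 units at each step. The Spink5 step was lost without replicate 1, 3 or 4 of every group (edgeR adjusted p = 0.0866, 0.116 and 0.128). Without replicate 4, Klk10 (3.67, adjusted p = 0.0147) and Klk13 (7.47, adjusted p = 0.0104) were called in that step. The background moved too: leaving out 1 replicate number gave 960 to 1782 genes called over the weeks against 3013, and 86 (without replicate 3) to 1076 genes in the step against 1335.

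Sham skin gave a second reference, and its 3 libraries were spread widely for Klk6, at 3.00, 24.4 and 6.40 CPM. For Klk13 they held 1.77, 1.30 and 2.84 CPM, within or near the control range. Against sham skin, edgeR called 0 members in week 1 (5 unadjusted, DESeq2 3, 1.75% of all genes), 0 in week 2 (3 unadjusted, DESeq2 1, 5.06% of all genes), 2 in week 3 (18.2% of all genes) and 4 in week 4 (26.7% of all genes). Those of week 3 were Klk6 (log2 fold change 3.23 ± 0.78, adjusted p = 0.0254) and Klk13 (5.50 ± 1.05, adjusted p = 0.0123). Week 4 added Klk9 (1.78 ± 0.32, adjusted p = 0.00462) and Klk8 (1.16 ± 0.31, adjusted p = 0.0237) to Klk6 (3.06 ± 0.69, adjusted p = 0.0123) and Klk13 (5.08 ± 0.31, adjusted p = 9.17e-05). In the early weeks the DESeq2 calls were Klk5 (0.988, adjusted p = 0.0128), Klk8 and Klk13 in week 1 and Klk5 (1.21, adjusted p = 0.0154) in week 2. DESeq2 called 1213 of 25152 genes in week 1 and 2404 of 25260 in week 2, and the shares given above are those of edgeR. Klk5 in week 2 was also called in 1 fit of all 35 samples (adjusted p = 0.0247) and without radiated replicate 1 (0.0262). Without sham replicate 2, the library high in Klk6, its log2 fold change became 4.54 in week 3 and 4.36 in week 4. Klk6 in week 3 was lost with the replicate block (adjusted p = 0.0569), without radiated replicate 3 (0.0524) and without sham replicate 1 (0.0518) or 3 (0.0869), and Klk13 without sham replicate 2 (0.056). In week 4, 1 fit of all 35 samples kept Klk13 and lost Klk6 (adjusted p = 0.0684), Klk8 (0.148) and Klk9 (0.0556). Klk8 was also lost without radiated replicate 1 or 3 or sham replicate 2 or 3, with adjusted p from 0.0508 to 0.0761. These comparisons share the radiated libraries with those above and share the sham libraries with each other.

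For Spink5 the sham libraries held 1019, 1228 and 657 CPM, which overlapped the radiated libraries of weeks 3 and 4. The difference between radiated and sham skin did not pass in week 3 (log2 fold change -0.473 ± 0.266, edgeR adjusted p = 0.249) or week 4 (-0.425 ± 0.245, adjusted p = 0.237). In weeks 1 and 2 it was positive, at 0.615 ± 0.329 (adjusted p = 0.390) and 0.833 ± 0.368 (adjusted p = 0.209), and did not pass in those fits. Control skin of week 4 was itself above sham skin for Spink5 (0.964 ± 0.202, adjusted p = 0.0430) and for Klk5 (0.538 ± 0.103, adjusted p = 0.0333). The summed suprabasal and granular markers ranged from 11469 to 20245 CPM in sham skin and from 26614 to 31668 CPM in control skin of week 4, and their part in these differences was not tested. Between radiated and sham skin of week 4, Klk5 did not pass (-0.20 ± 0.24, adjusted p = 0.581). Each of the control-against-sham calls was lost in 1 fit of all 35 samples and with the replicate number as a block, which for these mice is a number only. Leaving out any 1 of the 4 control libraries also ended both week 4 calls, with adjusted p from 0.0813 to 0.135.

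Klk10 and Klk6 had lower estimates in control than in sham skin in every week. Sham libraries held 12.3, 36.3 and 24.5 CPM of Klk10, above most control libraries. Its log2 fold change of control minus sham skin lay between -1.74 (week 3, edgeR adjusted p = 0.0272) and -1.21 (week 4, adjusted p = 0.0923). For Klk6 it was -2.16, -1.60, -1.91 and -2.16 in weeks 1 to 4, and none passed (edgeR adjusted p = 0.0772, 0.247, 0.0702 and 0.129). DESeq2 called Klk6 in weeks 1 (adjusted p = 0.00267) and 3 (0.00568), and edgeR with total-count scaling called it in week 3 (0.0454). Of the members, edgeR called 0 in week 1 (3 unadjusted, DESeq2 3, 4.92% of all genes), 0 in week 2 (3 unadjusted, DESeq2 3, 2.44% of all genes), 1 in week 3 (11.4% of all genes) and 2 in week 4 (3.65% of all genes). These shares are those of edgeR, while DESeq2 called 2890 of 24615 genes in week 1 and 1899 of 24646 in week 2. The shares of all genes moved with single libraries. Leaving out 1 library gave 0 to 1803 genes called in week 1 against 881, 0 to 2199 in week 2 against 435, 629 to 2438 in week 3 against 2036 and 0 to 1705 in week 4 against 655. With the replicate block 0, 1, 477 and 97 genes were called. Leaving out control replicate 2, 3 or 4 or sham replicate 2 or 3 ended the Klk10 call of week 3. Hair shaft and inner root sheath markers summed to 2278, 30476 and 36248 CPM in the sham libraries. In control skin they ranged from 26.2 to 7495 CPM in week 1, 15.8 to 2776 CPM in week 2, 36.9 to 1998 CPM in week 3 and 36.9 to 51.0 CPM in week 4, so 2 control libraries exceeded the lowest sham library. The part of hair growth in these differences was not tested.

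The make-up of the kallikrein transcripts shifted in radiated skin. On the scale of CPM per kb, Klk7 made up 57.7% ± 2.16 (SD, n = 4) of the 9 kallikreins in week 4 control libraries, and 33.9% ± 2.96 in the radiated ones. Klk6 made up 0.771% ± 0.388 and 17.5% ± 5.1, Klk13 0.207% ± 0.084 and 9.89% ± 3.02, and Klk5 14.6% ± 0.2 and 5.35% ± 1.32. The ranges of control and radiated libraries of week 4 did not overlap for any of these shares, which are tied to each other because they add to a whole. Klk7 was the largest share in every library but radiated week 3 replicate 3, where it was Klk9, and in radiated week 3 replicate 1 it held 42.2% beside 31.1% for Klk6.

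Set against Spink5, the summed kallikreins were higher in the later radiated libraries. The ratio of the 9 kallikreins to Spink5, both in CPM per kb, was 0.605, 0.596, 0.585 and 0.591 in the week 4 control libraries, and the radiated ones had 2.66, 2.2, 3.00 and 2.37. In week 3 it was 0.653, 0.961, 0.752 and 0.899 against 2.58, 1.49, 4.88 and 2.75. Sham libraries lay at 0.923, 1.15 and 1.49. For Klk7 alone, whose level hardly differed, the ratio to Spink5 in week 4 averaged 0.343 ± 0.012 in control and 0.870 ± 0.170 in radiated skin (SD, n = 4). These ratios combine values given above and are descriptions, with no test of their own.

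**Figure D4:**
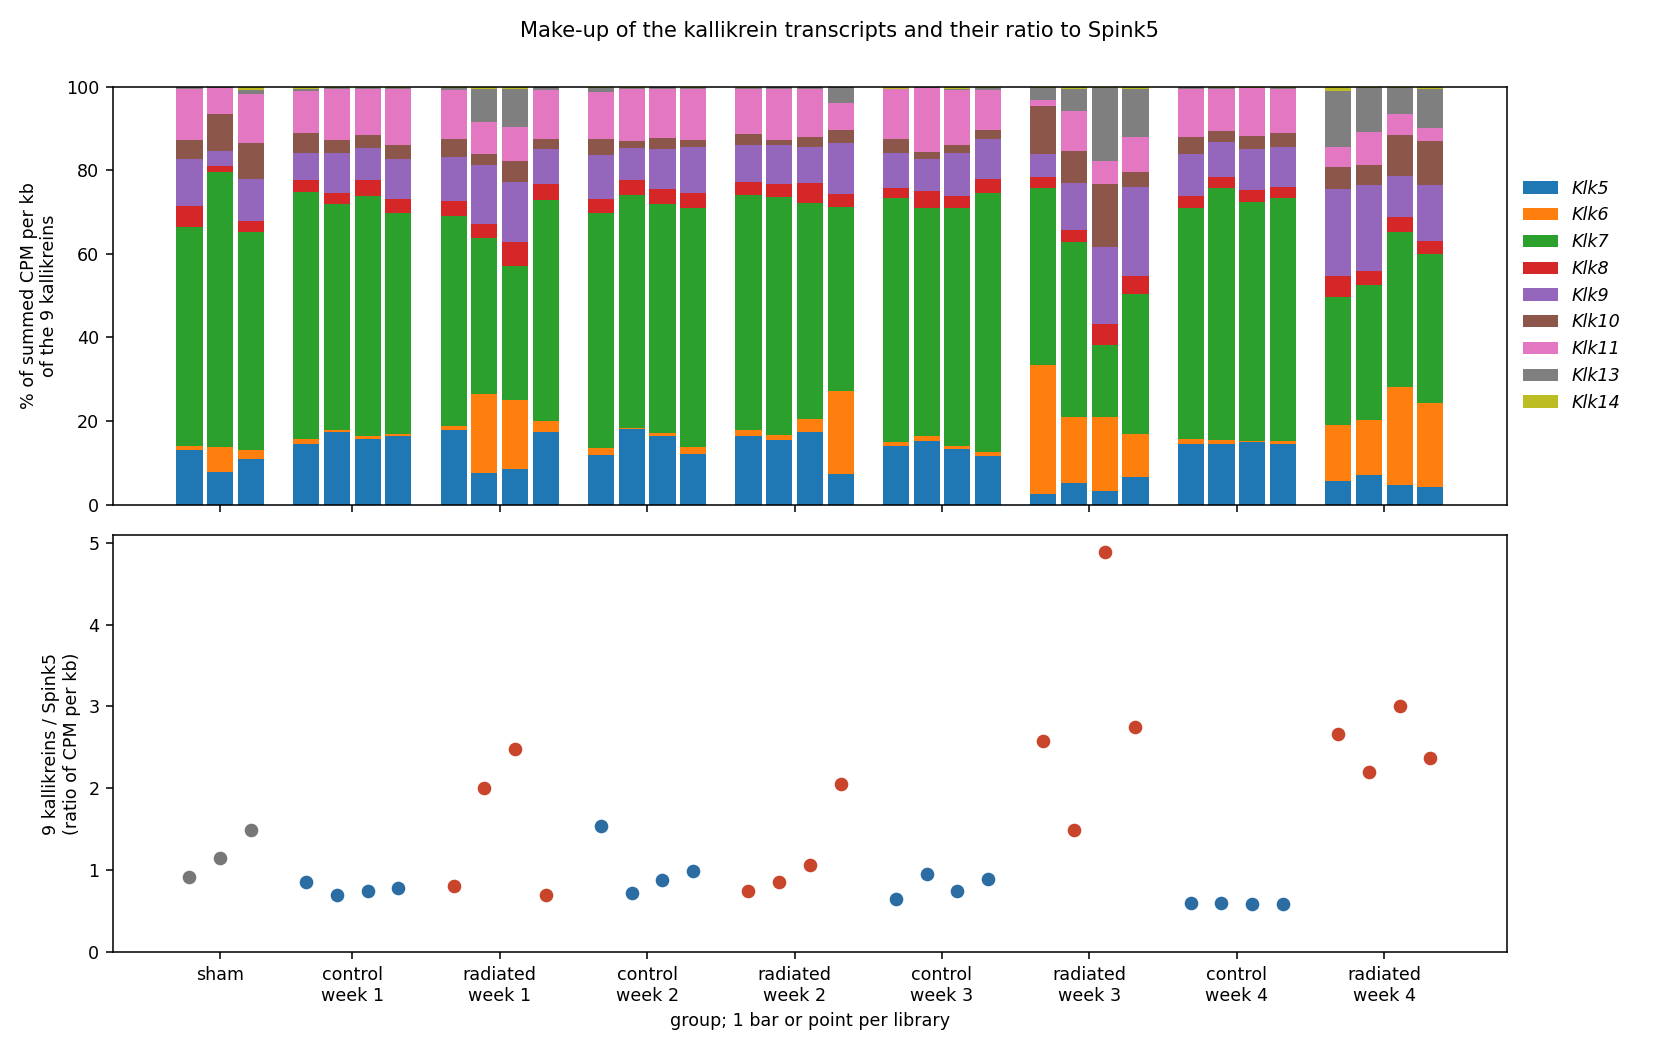
Top, share of each kallikrein in the summed CPM per kb of the 9 kallikreins, 1 bar per library; bottom, ratio of that sum to Spink5 in CPM per kb, 1 point per library. In week 4 the ratio lies between 0.585 and 0.605 in control libraries, and between 2.2 and 3.00 in radiated libraries.

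Across the 35 libraries the members fell into loose groups, described here by Spearman's rho of log2 CPM, where all points share their libraries. The highest value was 0.816, between Spink5 and Klk5. Klk6 and Klk13 followed at 0.800, Klk8 and Klk9 at 0.782, and Klk6 and Klk10 at 0.764. The lowest was -0.478, between Klk14 and Spink5.

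Among 16405 other genes averaging 1 CPM or more, those most like Klk6 were Cntn2 (rho 0.909) and Degs2 (0.904), an enzyme of skin ceramides. For Klk13 they were Gjb2 (0.857), the gap junction protein connexin 26, and Sprr2a2 (0.855), a small proline-rich protein of the cornified envelope. Klk8 was most like Il1f6 (0.818), the cytokine IL-36 alpha, and Eif4h (0.809), Klk9 most like Eif4h (0.811) and Klk8 (0.782), Klk10 most like Shkbp1 (0.878) and Depdc5 (0.856), and Klk14 most like Jakmip1 (0.776) and Angpt4 (0.746). Klk5 was most like Map3k9 (0.937) and Wfdc5 (0.929), Klk7 most like Scnn1a (0.743), a subunit of the epithelial sodium channel, and Gltp (0.729), and Klk11 most like Nccrp1 (0.884) and Alox12b (0.857), a lipoxygenase of the skin barrier. Spink5 was most like Elovl1 (0.939), an enzyme that lengthens fatty acids for ceramides, and Dmkn (0.937), the secreted keratinocyte protein dermokine.

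The proteins that kallikreins cut, and their partners, held calls in both directions. Of 10 corneodesmosome and desmosome genes, 2 were called higher and 2 lower in week 3, and 3 higher and 5 lower in week 4, with a median log2 fold change of -0.326 in week 4 against 0.0175 over all genes tested. Over all genes tested, 13.6% were called each way in week 3 and 24.2% each way in week 4, so a count of 2 or 3 of 10 lies near that background. In 1 fit of all 35 samples the week 4 counts were 2 and 3. Cdsn, which encodes corneodesmosin, averaged 176 CPM in radiated and 206 CPM in control skin of week 4 and did not pass (edgeR adjusted p = 0.579). Dsg1a, a desmoglein 1 gene, fell by 1.90 ± 0.22 on the log2 scale (adjusted p = 8.32e-05), while its paralogue Dsg1b rose by 1.05 (adjusted p = 2.04e-05). The near-identical sequence of the Dsg1 genes makes the split of reads between them uncertain. Dsc2, a desmocollin, rose by 2.65 (adjusted p = 5.16e-06) and Dsc1, the desmocollin of cornified cells, fell by 0.722 (adjusted p = 0.00327), a call lost in 1 fit of all 35 samples.

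A list of other proteases and related genes was mostly called higher where called. In week 4, 9 of 15 tested were higher and 1 lower, and in week 3, 4 of 14 were higher. It also held Hgf, Hgfac, Plau, Plat, Ctsl and Ctsd, so its counts do not describe the cascade that starts with St14 and Prss8. Over all genes, 24.2% were called each way in week 4 and 13.6% in week 3, and in 1 fit of all 35 samples the week 4 counts of the list were 7 higher and 1 lower. The median log2 fold change of the list in week 4 was 1.28. Prss27, a membrane serine protease, rose by 3.19 (edgeR adjusted p = 7.37e-06) and cathepsin L, Ctsl, by 1.84 (adjusted p = 3.91e-06). Hgf, counted among the 9, rose by 3.62 (adjusted p = 1.46e-06), and it encodes a growth factor with a protease-like fold and no protease activity. The proteases that start the cascade did not pass: St14, which encodes matriptase, had a log2 fold change of -0.47 (adjusted p = 0.0649) and Prss8, which encodes prostasin, -0.54 (adjusted p = 0.0695). Tmprss13 was the 1 called lower, at -0.87.

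Of 14 other inhibitors tested in week 4, 6 were called higher and 4 lower, and of 11 tested in week 3, 2 and 2. The week 3 counts and the lower calls of week 4 lie near the shares of all genes, 13.6% and 24.2% each way. Slpi, a secreted inhibitor of neutrophil elastase, averaged 34.1 CPM in radiated and 0.432 CPM in control skin of week 4 (log2 fold change 6.35, edgeR adjusted p = 3.94e-06). Serpina12, vaspin, an inhibitor of Klk7, averaged 15.3 against 198 CPM and fell by 3.68 (adjusted p = 0.000141). Others called higher included Serpinb12, Serpinb3b, Serpinb3a and Spink12. Spink12, of the same inhibitor family as Spink5, averaged 1.78 ± 0.643 CPM in radiated skin (SD, n = 4) and was at 0 in all 4 control libraries. Serpinb3a averaged 7.10 ± 5.32 CPM against 0.0243 ± 0.0283 CPM. Both passed the filter on low counts only through their radiated libraries, so they could not be called lower. They are among the 6 called higher, and that count is not read against the share of all genes. Serpinb8 fell by 1.28 (adjusted p = 5.76e-05), Spint2 fell by 1.02 (adjusted p = 0.00213) and Serpinb5, maspin, by 1.14 (adjusted p = 0.000134). With no filter on low counts 15 were tested in week 3, with 4 called higher and 3 lower, and in 1 fit of all 35 samples 6 and 4.

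Among receptors and products, 5 of 9 were called higher and 2 lower in week 4, where 24.2% of all genes were called each way, so the lower calls lie near that background. F2rl1, which encodes PAR2, fell in week 3 (-1.94, edgeR adjusted p = 0.000713) and in week 4 (-1.09, adjusted p = 7.13e-05). Il1b rose by 4.69 in week 4 (adjusted p = 1.80e-05), with means of 81.4 CPM and 3.21 CPM. Flg, which encodes profilaggrin, did not pass (adjusted p = 0.101), while Flg2 fell by 4.24 (adjusted p = 0.00177). Regulators of late differentiation had 4 of 8 called lower in week 3 (13.6% of all genes) and 5 of 8 in week 4 (24.2% of all genes), where Gata3 fell by 2.95 and Klf4 fell by 1.66.

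**Figure D5:**
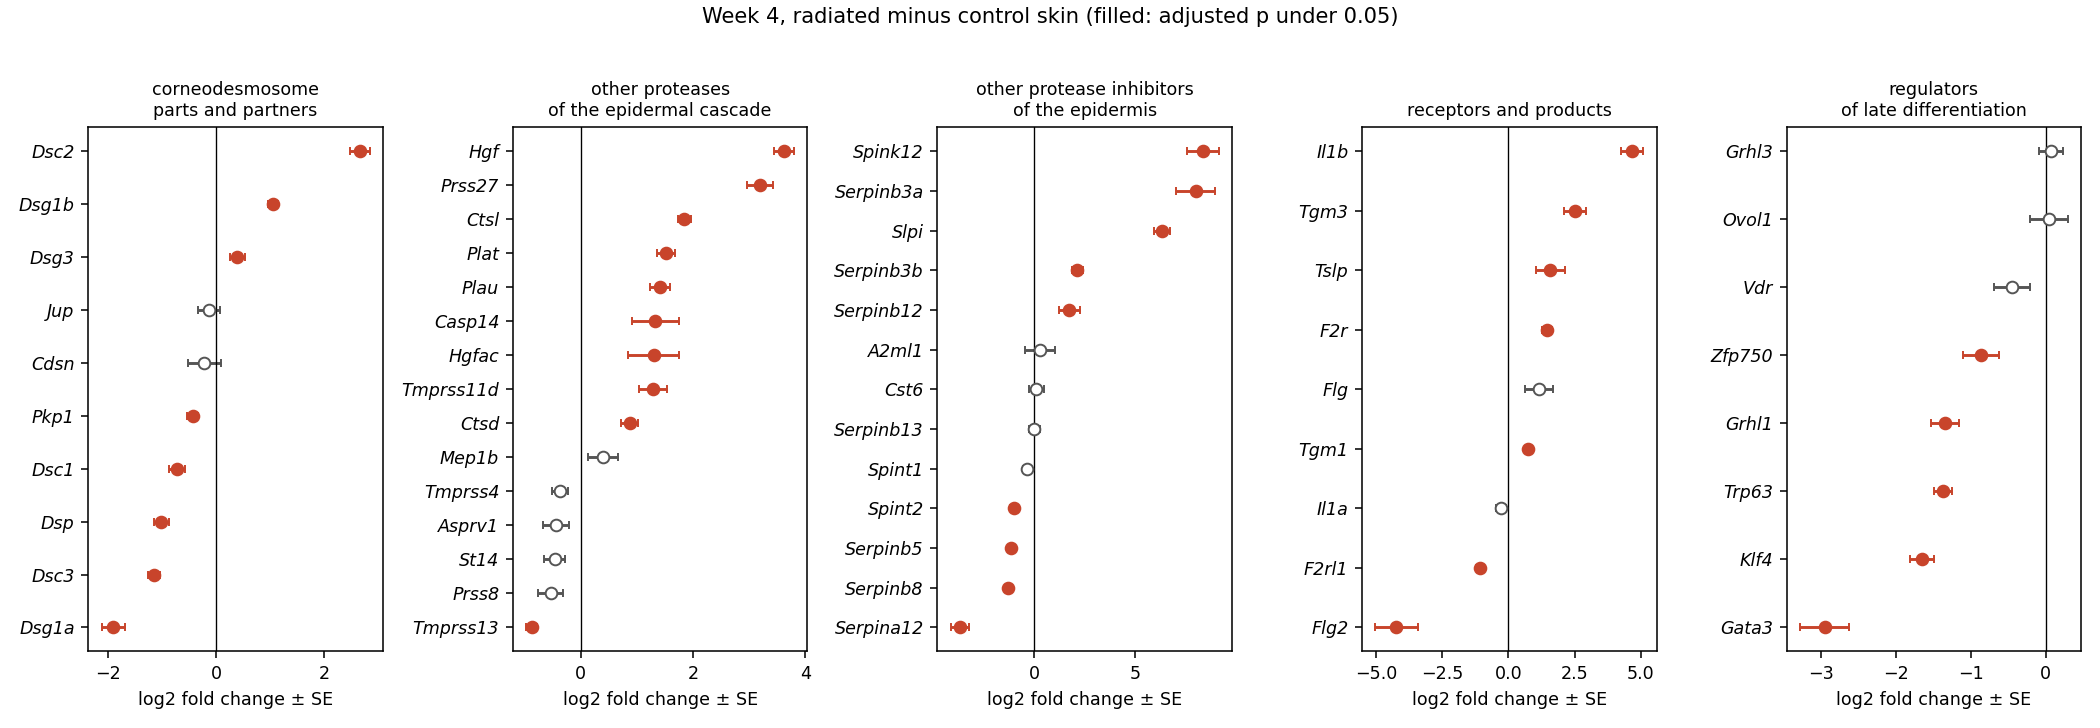
Log2 fold change, radiated minus control skin, with its SE, in week 4 for 5 lists. These are corneodesmosome parts, other proteases and related genes, other inhibitors, receptors and products, and regulators of late differentiation. Filled points passed an adjusted p of 0.05 (edgeR, n = 4 and 4). All filled points among the regulators, 5 genes, lie below 0, and the other 4 lists hold filled points in both directions.

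Cell type markers moved together with these results, and their counts are to be read against the 13.6% of all genes called each way in week 3 and the 24.2% called each way in week 4. The defining keratinocyte markers were present in every group. Of 5 basal markers, 1 was called higher and 3 lower in each of these weeks. Their sum ranged from 10854 to 13444 CPM in radiated and from 13771 to 17194 CPM in control skin of week 4. Within that sum Krt14 went the other way. Its week 4 libraries held 6705, 7733, 6429 and 7178 CPM in radiated and 1920, 1955, 1594 and 1447 CPM in control skin. Of 10 suprabasal and granular markers tested, 4 were called lower in week 3 and 8 in week 4. Krt1, 1 of them, held 901, 1362, 707 and 152 CPM in radiated and 634, 533, 509 and 495 CPM in control libraries of week 4. The summed level of these markers ranged from 1386 to 10024 CPM in radiated and from 26614 to 31668 CPM in control skin of week 4. In week 3 that sum was 715 CPM in radiated replicate 1 and 22875 CPM in replicate 4, and Klk5, Klk11 and Spink5 were also lowest in replicate 1 and highest in replicate 4 of that week. Klk6 and Klk13 were both highest in replicate 3. The part of the suprabasal cells in these results was not tested.

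Of 9 hair shaft and root sheath markers tested in week 4, edgeR called 7 higher. The listed hair markers summed to 274, 25.4, 6156 and 71.9 CPM in radiated replicates 1 to 4, so replicate 3 held most of it. In control skin of week 4 they summed to 36.9 to 51.0 CPM. The summed neutrophil markers ranged from 140 to 225 CPM in radiated and from 11.0 to 23.8 CPM in control skin of week 4, and the fibroblast markers from 18208 to 30900.5 CPM against 1703 to 3283 CPM. Of the glandular markers, Smr3a was at 0 in every group and Bpifa2 at 0 in 6 of 9 groups. Of 5 skeletal muscle markers, 4 were called lower in week 3, where their sum ranged from 3002 to 7860 CPM in radiated and from 17470.5 to 33013 CPM in control skin, and 3 in week 4 (1860.01 to 4230.2 CPM against 1438 to 21859 CPM). Macrophage markers were called higher for 2 of 5 in week 3 and 5 of 5 in week 4, where they summed to 684 to 911 CPM against 88.0 to 155 CPM. Over all genes tested, 13.6% were called each way in week 3 and 24.2% each way in week 4. Sebaceous markers were called lower for 1 of 7 in week 3, which is at the background share, and for 3 of 7 in week 4. The part of these cell types in the kallikrein values was not tested.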

How the data were processed

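RNA of 35 skin samples was sequenced in bulk. The deposited table holds estimated counts per gene, which the authors made with kallisto, per the labels' protocols (Trim Galore 0.6.7, kallisto 0.46.2 and mm10, per the submitters' processing notes); the transcriptome release is not given in the sources used here. Estimated counts were rounded to whole numbers. Library totals ran from 17362853 to 28487885. A floor of 3 counts covers counting error only, whereas the ± values are SDs between libraries or SEs of the fits, as named.

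Each comparison was fitted on the groups it names, over all genes left by filterByExpr, with TMM scaling and edgeR 4.0.16's quasi-likelihood test (R 4.3.3, limma 3.58.1), with Benjamini-Hochberg adjustment and a threshold of 0.05. No replicate block entered the reported fits. The SE of an edgeR log2 fold change is derived, as its absolute value divided by the square root of the quasi-likelihood F statistic. Alternatives were DESeq2 1.42.0, total-count scaling, no filter, 1 fit of all 35 samples, the replicate block and leaving out each replicate. The fits were also run on counts simulated with the same spread for every gene, which does not check them for the spread of these data. Same-numbered radiated and control samples are taken as 1 mouse; their deviations from the group means had a mean correlation of 0.0706, 0.173, 0.0525 and -0.0198 in weeks 1 to 4 over 19813 genes. Gene positions are from GENCODE M21 on GRCm38, which holds 35866 of the 36106 gene IDs.

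The 10 genes were described whatever their values; the other genes named came from lists of the pathway and from the 2 genes most like each member, and examples within lists were picked after their values were seen. A listed inhibitor is not reported here. Members and lists were chosen with earlier results of these data known.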

Additional observations from a re-analysis of the deposited data

Results flagged for a closer look

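Among 80 member-by-group sets of 4 samples each, the highest sample stood apart in a pair of them, where chance gives about 1 in 20 sets. On the log2 CPM scale, in radiated skin of week 2, the gap between the highest Klk13 library (replicate 4, 86.8 CPM) and the next was 0.886 of the group's range, above the 95% limit of Dixon's test for that group size. In radiated skin of week 3, the gap of the highest Spink5 library (replicate 4, 861 CPM) was 0.890 of the range on the same log2 scale.

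The radiated-minus-control difference of Spink5 changed between weeks, by the test over weeks 1 to 4 (edgeR adjusted p = 0.00173) and by the step from week 2 to week 3 (adjusted p = 0.0226). The causes were not tested.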

How the results depend on the processing

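The calls of Klk6, Klk10, Klk13 and Spink5 between radiated and control skin in week 3, and of those genes and Klk14 in week 4, held under every alternative run; the highest adjusted p was 0.0249 in week 3 and 0.0209 in week 4. With the replicate block, edgeR called 0, 0, 4 and 8 members in weeks 1 to 4, the same counts as without it. Over all genes the block gave 0 of 17578, 641 of 17345, 3721 of 17653 and 7623 of 17850 calls. In 1 fit of all 35 samples edgeR called 1 in week 2, 5 in week 3 (Klk9 added) and 5 in week 4. That fit called 544, 6725 and 6941 of all 19813 genes in those weeks. DESeq2 called 3 in week 1 and 6 in week 3, and total-count scaling 6 in week 3 (Klk8 and Klk9 added in both). Over all genes DESeq2 called 419 of 25203 in week 1 and 6009 of 25381 in week 3. Total-count scaling called 5324 of 17653 genes in week 3. Leaving out 1 library gave 0 to 2 calls in week 1, 4 to 6 in week 3 and 8 to 9 in week 4. All genes called then ran from 0 to 232, 3209 to 5071 and 7548 to 8582.

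Against sham skin, radiated skin had 1, 2, 3 and 1 calls in weeks 1 to 4 in 1 fit. That fit called 1224, 3257, 6402 and 5127 of 19813 genes. DESeq2 gave 3, 1, 3 and 4 calls, with 1213 of 25152, 2404 of 25260, 4725 of 25401 and 5819 of 25561 genes. The replicate block gave 1 in week 3, with 3009 of 18220 genes. Leaving out 1 library gave 0 to 1 in week 2, 1 to 3 in week 3 and 3 to 4 in week 4. All genes called then ran from 107 to 1398, 1134 to 3965 and 3467 to 4590. Control skin against sham had 3, 3, 2 and 3 calls by DESeq2 in weeks 1 to 4. There DESeq2 called 2890 of 24615, 1899 of 24646, 3442 of 24549 and 1821 of 24699 genes. In weeks 3 and 4 there were 0 calls in 1 fit, with 2270 and 597 of 19813 genes called. The replicate block also gave 0, with 477 of 17907 and 97 of 17925 genes. Total-count scaling gave 2 and 1, with 2522 of 17907 and 640 of 17925 genes. Leaving out 1 library gave 0 to 3, 0 to 2, 0 to 2 and 0 to 4 calls in weeks 1 to 4. The test over weeks gave 2 by DESeq2, which called 3926 of 28305 genes, and 1 to 3 without 1 replicate number. The step from week 2 to week 3 gave 0 to 2.

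Signs of single values that did not pass reversed as follows. Leaving out 1 library, Spink5 in week 1 ran from -0.115 (without radiated replicate 2) to 0.292. In week 2, where the low end is without radiated replicate 4, Klk10 ran from -0.292 to 1.45, Klk11 from -0.0992 to 0.685, Klk13 from -0.705 to 3.76, Klk7 from -0.104 to 0.978 and Klk9 from -0.191 to 1.4. In week 3, Klk11 ran from -0.497 to 0.199 (without radiated replicate 1) and Klk7 from -0.256 to 0.0715 (positive without control replicate 4, 0.0251, or radiated replicate 2); total-count scaling gave 0.0875 and 0.156. Klk7 in week 4 ran from -0.229 to 0.0178 (without radiated replicate 1). Total-count scaling moved the median of all genes from 0.0804 to 0.317 in week 3, with 4054 of 5324 calls higher against 2408 of 4805. The causes were not tested.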
